A study of Mus musculus with 6 samples.

Results

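The genes described here encode proteins that return calcium to its stores or remove it from the heart muscle cell, and proteins that regulate calcium handling or release it from stores. They comprise the sarcoplasmic reticulum pump *Atp2a2*, its regulators *Pln*, *Sln* and *S100a1*, the exporters *Slc8a1*, *Atp2b1* and *Atp2b4*, the kinase subunits *Camk2d* and *Camk2g*, and the store channel *Itpr2*. Members were chosen by gene symbol, which gave 10 of the 21776 genes of the table. RNA from the hearts of 3 *Trdn-as* KO mice and 3 WT mice was sequenced, 1 library per heart, and KO was compared with WT for each gene. KO mice were homozygous for a polyadenylation site inserted by Cas9 into the first exon of *Trdn-as*, an RNA antisense to the triadin gene *Trdn*. The insertion was made in embryonic stem cells and is carried in every cell of the animal, and the chimeras were crossed to C57BL/6, although the design text of the series speaks of hearts lacking *Trdn-as* in cardiomyocytes. The labels name no drug and no other allele, and the series title calls the heart adult. Age, the number of stem cell clones behind the line and the origin of the WT mice as littermates are not given in the sources used here, and sex was not considered in the design. Values are normalized read counts, that is reads per gene divided by the size factor of the library.

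Relaxation of a heart muscle cell requires that cytosolic calcium is lowered again. Most of it is pumped back into the sarcoplasmic reticulum by SERCA2, the product of *Atp2a2*, and most of the rest leaves the cell through the sodium-calcium exchanger encoded by *Slc8a1*. Phospholamban (*Pln*) and sarcolipin (*Sln*) are small membrane peptides that bind SERCA pumps and lower their activity, and phosphorylation of phospholamban by protein kinase A or by CaMKII relieves this inhibition. Phospholamban is the main regulator in the ventricle, whereas sarcolipin is mainly made in the atria.

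The coding sequences of both inhibitors are shown because the 2 genes regulate the same pump but were at opposite ends of the levels per exonic kilobase, and *Sln* varied most between hearts. They were read from GENCODE M21 transcripts (GRCm38), both on the plus strand, *Pln* from chr10:53343864-53344022 and *Sln* from chr9:53853473-53853568. Capitals mark the longest run of residues that the encoded peptides share, 5 residues of the membrane-spanning part.

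Pln: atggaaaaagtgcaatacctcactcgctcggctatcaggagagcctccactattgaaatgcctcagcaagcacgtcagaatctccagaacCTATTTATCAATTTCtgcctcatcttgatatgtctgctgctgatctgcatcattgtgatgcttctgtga

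Sln: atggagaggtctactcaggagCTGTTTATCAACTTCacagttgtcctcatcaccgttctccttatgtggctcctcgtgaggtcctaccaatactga

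*Pln* encodes 52 residues and *Sln* 31, and the shared run covers residues 31 to 35 of phospholamban and 8 to 12 of sarcolipin. Of its 15 bases, 13 are identical between the genes. Codons 16 and 17 of *Pln* encode the serine and threonine that protein kinase A and CaMKII phosphorylate. *Pln* lies on the chromosome of *Trdn*, 19.9 Mb beyond its end, and *Atp2b1* 65.4 Mb beyond it, while the other 8 genes are on other chromosomes.

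Deposited values summed to between 3133225 and 3253754 per library, and the estimated reads of the deepest library were 1.40 times those of the shallowest. *Trdn-as* was at 1, 0 and 1 in KO hearts and at 690, 773 and 688 in WT hearts, and *Trdn* was at 161% of its WT mean in KO hearts (adjusted p = 2.35e-07, limma). All 6 cardiomyocyte markers, *Myh6*, *Tnnt2*, *Actc1*, *Tnni3*, *Ttn* and *Ryr2*, were detected, summing to between 91074 and 95374 in KO and between 94664 and 116107 in WT hearts. Skeletal muscle markers (*Myh2*, *Actn3*, *Tnnt3* and *Myh8*) were below the filter, summing to at most 12 in any heart. The 6 atrial markers were in the table, from 1338 to 1592 in sum. The WT heart with the fewest reads, replicate 1, was the highest of the 6 hearts for 5 of the 10 members, *Atp2a2*, *Pln*, *S100a1*, *Slc8a1* and *Camk2d*. The KO heart with the most reads, replicate 1, was the lowest for 6. Over the 9 members other than *Sln*, the median was 108% of the 6-heart mean in WT replicate 1 and 93.2% in KO replicate 1. The same counts over all tested genes are not given here.

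No member passed the test. All 10 had a mean of at least 10 and were tested, and 0 reached an adjusted p of 0.05 (limma), where 0.0291% of the 13753 tested genes did, and limma-voom likewise gave 0. At an unadjusted p under 0.05 there were 3 members, *Atp2a2*, *Pln* and *Itpr2*, all with lower KO values, against 5.74% of all tested genes. Means were lower in KO for 7 members, against 49.4% of tested genes, and the median log2 fold change of the members was -0.09, against 0.00 over all tested genes. Without WT replicate 1 this median was -0.05 and no member had an unadjusted p under 0.05, and with depth as a covariate, an alternative chosen after seeing the data, it was -0.04, again with 0 such members. Groups did not overlap for 1 member, *Camk2d*, against 9.07% of tested genes, or 4.44% counting only those lower in KO. In bulk tissue, fewer cells of a type and less RNA per cell cannot be told apart. Nothing in the labels says more of the hearts than that they are separate samples, so the p-values measure the spread between these samples.

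**Figure D1:**
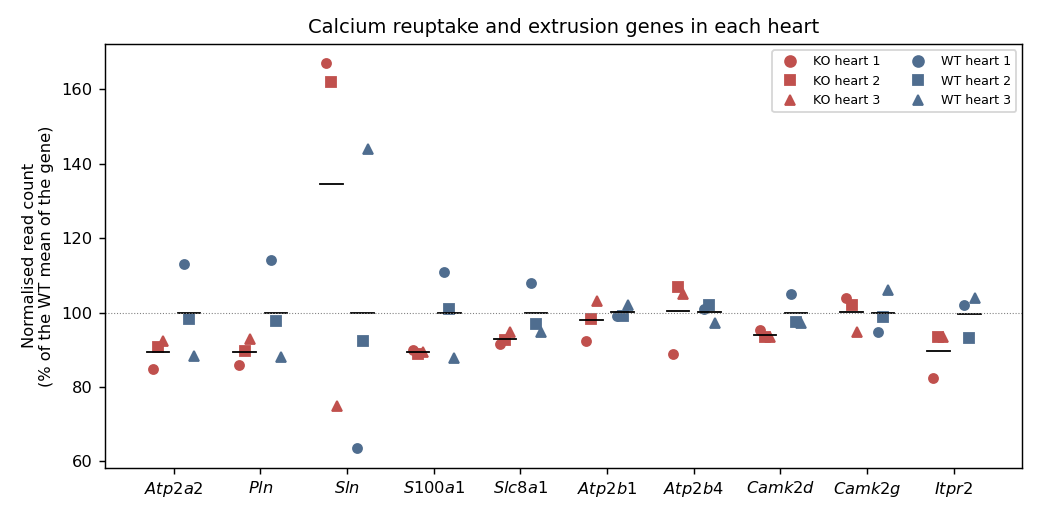
Normalized read count of each gene in each heart, as a percentage of the mean of the 3 WT hearts for that gene (vertical axis); red symbols are KO hearts, blue symbols WT hearts, the symbol shape gives the replicate and black lines are group means. WT replicate 1 is the highest heart for *Atp2a2*, *Pln*, *S100a1*, *Slc8a1* and *Camk2d*, and the KO and WT hearts overlap for every gene except *Camk2d*.

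*Atp2a2* (ENSMUSG00000029467, minus strand, chr5:122453514-122502225) encodes the SERCA2 pump, and a count per gene does not separate its cardiac and ubiquitous isoforms. Its normalized read counts were 3788, 4047 and 4124 in the KO group and 5050, 4387 and 3943 in the WT group. The KO hearts lay close together, while the WT hearts were spread from below 2 of the KO hearts to well above all of them. KO hearts averaged 3986 ± 176 and WT hearts 4460 ± 557 (SD, n = 3 each). The log2 difference, KO minus WT, was -0.16 (SE 0.07; limma, unadjusted p = 0.0381, adjusted p = 0.851), and the 95% interval ran from 81.1 to 99.3% of the WT level.

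*Pln* (ENSMUSG00000038583, plus strand, chr10:53337667-53345987) showed the same order of hearts. It was at 1956, 2046 and 2117 in KO hearts and at 2602, 2230 and 2010 in WT hearts, that is 2040 ± 80.7 and 2281 ± 299 (SD, n = 3 each). Again 1 WT heart, replicate 3, was below 2 of the 3 KO hearts. KO hearts stood at 89.4% of the WT mean, the same percentage as for *Atp2a2*, and the log2 difference was -0.15 (SE 0.07, limma, unadjusted p = 0.0445, adjusted p = 0.851).

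The reads of *Pln* relative to *Atp2a2* were also computed within each heart. Per 100 reads of *Atp2a2* there were 51.6, 50.6 and 51.3 reads of *Pln* in the KO hearts and 51.5, 50.8 and 51.0 in the WT hearts. The 6 ratios had a coefficient of variation of 0.827%, where counting error alone would give 2.65% on average. The reads of both genes were nearly level over the 6 libraries, as the next values show. The ratio is therefore not read as a measure of the balance of their transcripts, and the cause of its small spread was not tested.

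The reads behind both genes hardly followed the depth of the library. Multiplying each value by the size factor of its library, which was estimated from the rounding of the values, gave 4352, 4279 and 4146 reads of *Atp2a2* in KO and 4015, 4188 and 4350 in WT hearts. The highest was 1.08 times the lowest, whereas library totals differed 1.40-fold. For *Pln* the reads ran from 2069 to 2247, a ratio of 1.09. Expressed as the slope of log2 reads on log2 library reads over the 6 hearts, where a slope of 1 is proportional, *Atp2a2* had 0.25 and *Pln* 0.24, while the median over all tested genes was 1.09. Both genes are among the densest of the table, at 694 and 783 reads per exonic kilobase, with 0.0509% and 0.0218% of tested genes denser. The 25 tested genes of the highest density class, which holds both, had a median slope of 0.41 and a median log2 fold change of -0.15. The authors removed duplicate reads before counting, and its part in these values was not tested.

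With the log2 depth of the library as a covariate in limma, the log2 fold change was -0.03 for *Atp2a2* and -0.02 for *Pln*, with unadjusted p of 0.537 and 0.657. Without WT replicate 1, the shallowest library, the values were -0.06 and -0.05, and without WT replicate 3 they were -0.24 for each gene. The 6 cardiomyocyte markers moved with *Atp2a2* and *Pln*, with 6 of 6 lower in KO and a median log2 fold change of -0.16. Over all tested genes 49.4% were lower and the median was 0.00. Of the 6 markers 4 had an unadjusted p under 0.05 (limma), against 5.74% of all tested genes. For each of them WT replicate 1 was the highest heart, and the groups overlapped for all but *Ryr2*. *Myh6* was at 6643 in WT replicate 1 but at 5103 in WT replicate 3, within the KO range of 4985 to 5390. Marker values with depth as a covariate are not given here, and the part of depth in them was not tested. The 4 ventricular markers were also all lower in KO, with a median of -0.16 and 1 (*Myl3*) at an unadjusted p under 0.05.

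**Figure D2:**
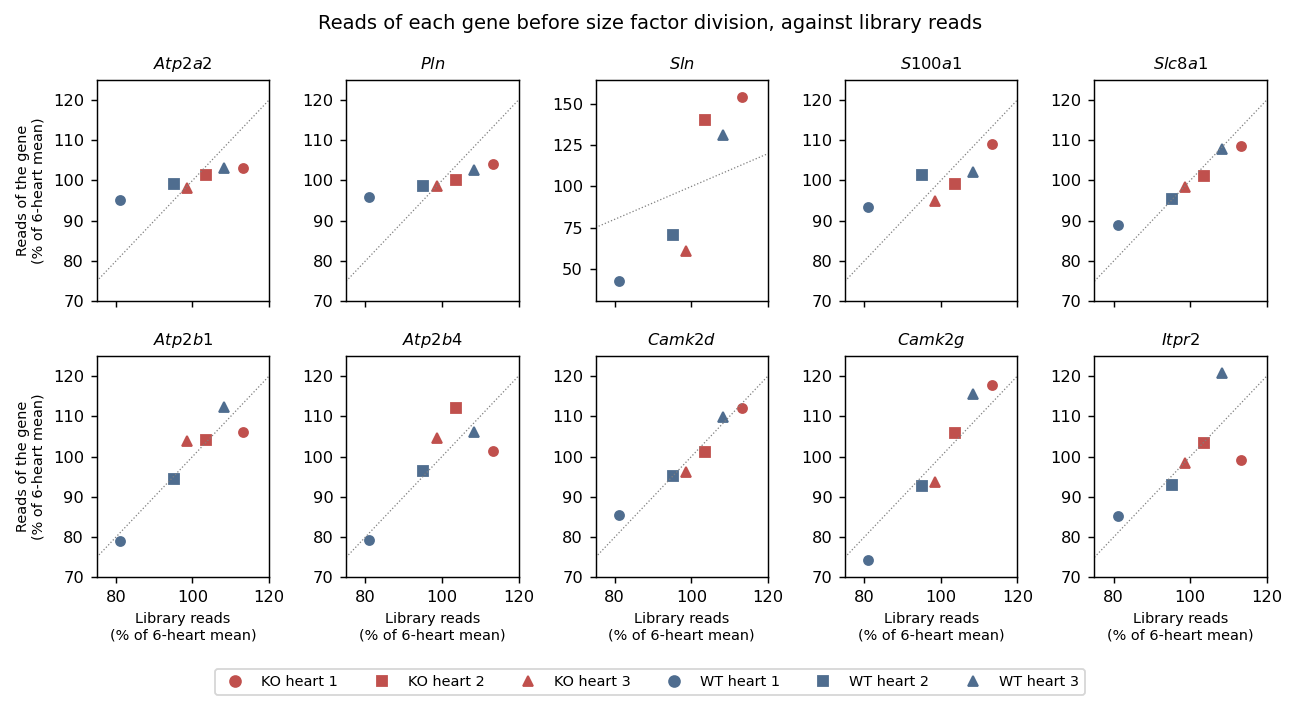
Estimated reads of each gene before division by the size factor (vertical axis, percentage of the mean of the 6 hearts, with a wider scale for *Sln*) against estimated reads of the library (horizontal axis, percentage of the mean of the 6 libraries); the dotted line marks proportional reads. *Atp2a2* and *Pln* stay nearly level, with slopes of 0.25 and 0.24 on the log2 scale, while *Atp2b1* follows the line with a slope of 1.00.

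*Sln* (ENSMUSG00000042045, plus strand, chr9:53850164-53854560), the other inhibitor, was the lowest and most variable member. Its values were 29, 28 and 13 in the KO group and 11, 16 and 25 in the WT group. High and low hearts occurred in both groups, and the ranges overlapped over most of their length. Means were 23.3 ± 8.96 and 17.3 ± 7.09 (SD, n = 3 each), and the difference on the log2(value + 1) scale was 0.40 (SE 0.33, limma, adjusted p = 0.916). The 95% interval ran from 82.1 to 212% of the WT level. The direction was not stable. With depth as a covariate the log2 difference was -0.09, and leaving out 1 library gave from 0.13 (without WT replicate 1) to 0.76 (without KO replicate 3). Estimated reads were 33, 30 and 13 in KO and 9, 15 and 28 in WT hearts. Summed over the group, 76 reads in KO had an exact Poisson 95% interval of 59.9 to 95.1 and 52 reads in WT one of 38.8 to 68.2, which cover counting error only. The reads had a slope of 3.97 on depth.

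Per 1000 reads of *Atp2a2*, the hearts held 7.66, 6.92 and 3.15 reads of *Sln* in KO and 2.18, 3.65 and 6.34 in WT. The exact permutation test gave p = 0.400 (two-sided, adjusted p = 0.800 over the 6 ratios tested). With 3 hearts against 3 this test cannot go below 0.10. Per 1000 reads of *Pln* the exact permutation p was also 0.400. Both denominators were nearly level with depth, so these ratios move with depth as the reads of *Sln* do. The 6 ratios to *Atp2a2* varied with a coefficient of variation of 45.5%, above the 23.7% that counting error alone would give on average. Among atrial markers, *Myl7*, the atrial regulatory light chain, was at 36, 47 and 28 in KO and at 24, 40 and 30 in WT hearts, and *Myl4*, the atrial essential light chain, at 159, 208 and 107 and at 93, 168 and 182. The 2 hearts lowest in *Sln*, KO replicate 3 and WT replicate 1, were also the lowest in *Myl7*, in *Myl4* and in the sum of the 6 atrial markers, but the other markers were not in that order. *Kcnj3*, an atrial potassium channel gene, was highest in WT replicate 1 at 882, against 802 to 869 elsewhere. *Nppa*, which encodes atrial natriuretic peptide, was at 301, 337 and 286 in KO and 321, 314 and 329 in WT, and *Dkk3* at 90, 161 and 78 and at 102, 76 and 126. KO replicate 1, the highest in *Sln*, was the third lowest in the atrial sum at 1455. *Bmp10*, expressed in the right atrium, was at 56 in WT replicate 3 and at 8 or less in the other hearts. The part of atrial tissue in the *Sln* values was not tested.

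*S100a1* (ENSMUSG00000044080, minus strand, chr3:90511034-90514392) encodes a calcium-binding protein that acts on SERCA2 and on the ryanodine receptor. It was at 319, 315 and 317 in KO hearts and at 395, 357 and 311 in WT hearts. The KO hearts were nearly equal, with a coefficient of variation of 0.631% against 11.9% in WT, and they lay between the second and the lowest WT heart. Its log2 difference was -0.15 (SE 0.08, limma, unadjusted p = 0.0783, adjusted p = 0.861). Its reads had a slope of 0.38 on depth, and with depth as a covariate its log2 fold change was -0.05. It was -0.07 without WT replicate 1 and -0.24 without WT replicate 3 (limma, unadjusted p = 0.00611, adjusted p = 0.405).

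Among the listed partners of SERCA2 and phospholamban, most means were lower in KO, but no gene passed the test. Of 11 SERCA micropeptides and partners 8 were tested. KO means were higher for 1 and lower for 7, with a median log2 fold change of -0.08. *Hrc*, the histidine-rich calcium-binding protein of the sarcoplasmic reticulum, was at 1483, 1400 and 1541 in KO and 1788, 1662 and 1481 in WT hearts, with an unadjusted p of 0.0291 (limma), and with depth as a covariate no gene of this list was under 0.05. Leaving out 1 library gave 0 to 5 such genes, with 0 without KO replicate 2, WT replicate 1 or WT replicate 2, 2 without KO replicate 1 and 5 without WT replicate 3. *Mrln*, which encodes myoregulin, was at 7 or less in every heart, and *Strit1*, which encodes DWORF, was not analysed here. Of the 11 genes that set phosphorylation of phospholamban 10 were tested, 2 with a higher and 8 with a lower KO mean. *Pde4d*, a cyclic AMP phosphodiesterase, was at 371, 356 and 337 in KO and at 405, 402 and 413 in WT hearts, without overlap, and its log2 difference was -0.20 (SE 0.07, limma, unadjusted p = 0.00975, adjusted p = 0.803). It was the only gene of this list with an unadjusted p under 0.05, and there were 0 such genes without KO replicate 3 and 3 without WT replicate 3. *Ppp1r3a*, a glycogen-targeting subunit of protein phosphatase 1, also did not overlap, at 1974, 1944 and 1932 in KO and 2036, 1984 and 2096 in WT (limma, unadjusted p = 0.229). These were 2 of the 10 tested genes of this list, where 9.07% of all tested genes did not overlap. The protein kinase A catalytic subunit gene *Prkaca* was at 495 on average in KO and 545 in WT hearts, with overlapping groups.

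*Slc8a1* (ENSMUSG00000054640, minus strand, chr17:81388691-81649607) encodes the exchanger that removes calcium in return for sodium. Its counts were 1220, 1236 and 1263 in the KO group and 1445, 1293 and 1262 in the WT group. Only WT replicate 3 lay within the KO range, by a single count, and the 2 other WT hearts were above it. KO hearts stood at 93.0% of the WT mean, a log2 difference of -0.10 (SE 0.06, limma, unadjusted p = 0.0990, adjusted p = 0.879). Per 100 reads of *Atp2a2* the 6 hearts held from 28.6 (WT replicate 1) to 32.2 (KO replicate 1) reads of *Slc8a1*, with overlapping groups and p = 0.400 by the exact permutation test (adjusted p = 0.800). These are the shallowest and the deepest library, and the reads of *Slc8a1* had a slope of 0.62 on depth against 0.25 for *Atp2a2*, so this ratio moved with depth. Without WT replicate 1 the log2 fold change was -0.04.

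The plasma membrane calcium pumps had nearly the same mean in both genotypes, 98.0% of WT for *Atp2b1* and 100% for *Atp2b4*. *Atp2b1* (ENSMUSG00000019943, plus strand, chr10:98915152-99026143), which encodes the widely expressed pump PMCA1, was at 691, 737 and 774 in KO and at 743, 741 and 762 in WT hearts. *Atp2b4* (ENSMUSG00000026463, minus strand, chr1:133699457-133801041), which encodes PMCA4, was at 366, 441 and 433 in KO and at 415, 420 and 400 in WT hearts. For both genes the KO values surrounded the WT values. The 95% intervals were 89.7 to 107% of the WT level for *Atp2b1* and 89.6 to 112% for *Atp2b4*, with adjusted p of 0.98 and 1.00 (limma). Per 100 reads of *Atp2b1* there were 56.2 ± 3.45 reads of *Atp2b4* in KO and 55.0 ± 2.22 in WT hearts (SD, n = 3 each), p = 0.600 (exact permutation test, adjusted p = 0.840).

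Of 8 other genes of the pump and exchanger families 3 were tested, and 0 had an unadjusted p under 0.05. *Atp2c1*, the Golgi calcium pump, was the most abundant, with means of 541 in KO and 531 in WT hearts, followed by *Atp2a3* with 93.0 and 83.7. *Atp2a1*, the pump of fast skeletal muscle, was at 1, 3 and 3 in KO and at 0, 5 and 5 in WT hearts, and *Slc8a3*, the exchanger of skeletal muscle, at 4 or less in every heart. The PMCA subunit genes *Bsg* and *Nptn* gave 95% intervals of 85.2 to 104% and 92.8 to 112% of the WT level.

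*Camk2d* (ENSMUSG00000053819, plus strand, chr3:126596951-126846326) encodes the main CaMKII subunit of heart muscle. It was at 1093, 1073 and 1073 in KO hearts and at 1207, 1118 and 1116 in WT hearts, so that all 3 KO values were below all 3 WT values. The difference was small, with means of 1080 ± 11.5 and 1147 ± 52.0 (SD, n = 3 each), and the log2 difference was -0.09 (SE 0.06, limma, adjusted p = 0.892), while with depth as a covariate, and also without WT replicate 1, it was -0.05. *Camk2g* (ENSMUSG00000021820, minus strand, chr14:20734875-20794088), a second subunit, was at 412, 403 and 375 in KO and 376, 391 and 421 in WT hearts. Its groups overlapped throughout, and the 95% interval was 90.3 to 111% of the WT level. The hearts held 36.7 ± 1.55 reads of *Camk2g* per 100 of *Camk2d* in KO and 34.6 ± 3.30 in WT (SD, n = 3 each), p = 0.70 (exact permutation test, adjusted p = 0.840). The lowest ratio, 31.2, was that of WT replicate 1, the shallowest library. Reads of *Camk2g* had a slope of 1.43 on depth against 0.82 for *Camk2d*. The log2 ratio, KO minus WT, was 0.09, but 0.02 without WT replicate 1 and 0.15 without WT replicate 3. Of 7 calmodulin, other CaMKII and CaMKII inhibitor genes 6 were tested, 1 with a higher and 5 with a lower KO mean and 0 at an unadjusted p under 0.05. *Calm3*, a calmodulin gene, stood at 95.7% of its WT mean in KO hearts.

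**Figure D3:**
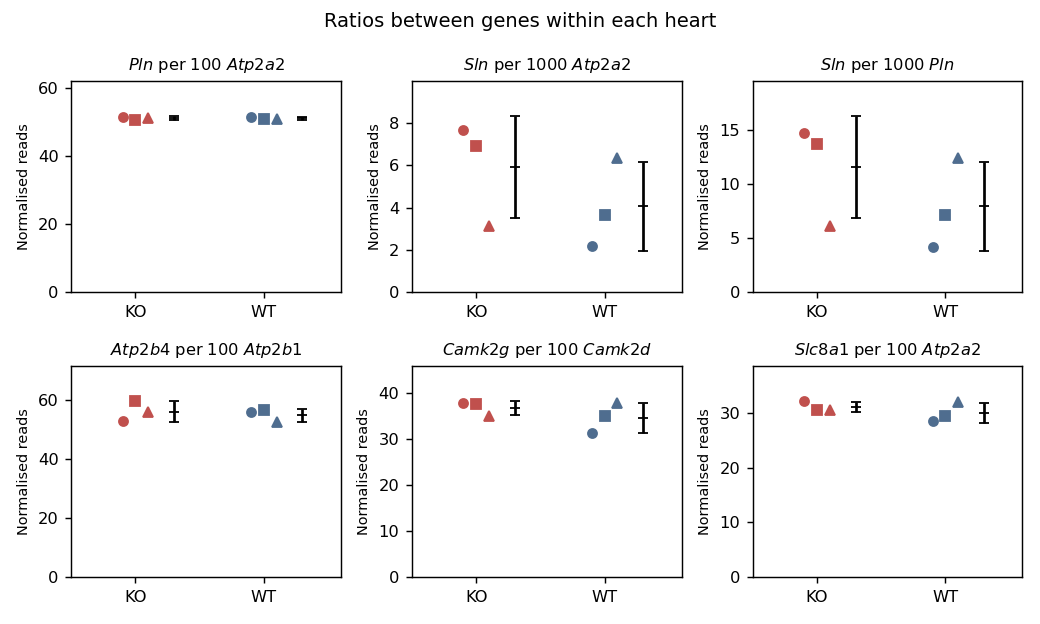
Normalized reads of one gene per 100 or 1000 reads of another within each heart (vertical axes start at 0); symbols are hearts, black bars the mean and SD of 3. The ratio of *Pln* to *Atp2a2* stays between 50.6 and 51.6 in all 6 hearts, and the reads of both genes are nearly level with depth. *Sln* per 1000 *Atp2a2* ranges from 2.18 to 7.66.

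*Itpr2* (ENSMUSG00000030287, minus strand, chr6:146108299-146502178) encodes the inositol trisphosphate receptor typical of heart muscle cells, which releases calcium from internal stores. Its normalized counts were 655, 743 and 743 in KO and 815, 741 and 831 in WT hearts. The groups overlapped by 1 heart, WT replicate 2, which was just below 2 KO hearts. Means were 714 ± 50.8 and 796 ± 48.0 (SD, n = 3 each), and the log2 difference of -0.16 (SE 0.07, limma) had the smallest unadjusted p of the members, 0.0295, with an adjusted p of 0.851. It was far less dense than *Atp2a2* and *Pln*, at 51.3 reads per exonic kilobase, and its reads had a slope of 0.74 on depth. With depth as a covariate its log2 fold change was -0.13 with an unadjusted p of 0.0880, and without KO replicate 1, its lowest heart, it was -0.10. Its relatives *Itpr1* and *Itpr3* averaged 1025 and 152 in KO and 1042 and 140 in WT hearts. *Ahcyl1*, a regulator of these receptors, averaged 716 and 719. The list held 5 genes, of which 1 had a higher and 4 a lower KO mean, with 0 at an unadjusted p under 0.05.

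**Figure D4:**
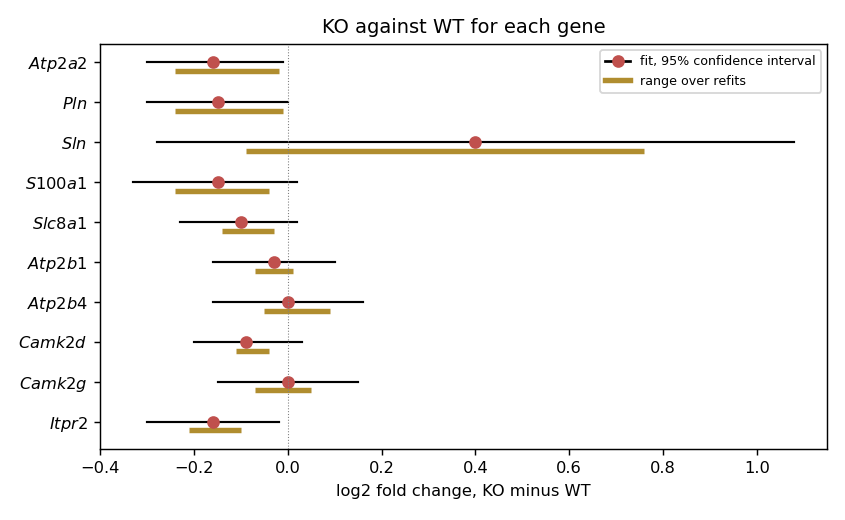
Log2 fold change of KO against WT on the log2(value + 1) scale (horizontal axis) for each gene, with its 95% confidence interval from limma (black) and the range of the estimate over 17 refits (ochre). *Itpr2* and *Camk2d* stay below 0 in every refit shown, as do *Atp2a2* and *Pln*, which come as near to 0 as -0.02 and -0.01.

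The remaining lists were S100 proteins and mitochondrial calcium transport. Of 9 S100 genes 5 were tested, of which *S100a10* and *S100a16* were the most abundant with WT means of 129 and 52.3, below the 354 of *S100a1*. All 9 mitochondrial genes were tested, and KO means were higher for 2 and lower for 7. *Mcu*, the pore of the mitochondrial calcium uniporter, was at 156, 153 and 158 in KO and at 143, 139 and 137 in WT hearts without overlap (limma, log2 difference 0.16, SE 0.09, unadjusted p = 0.114), and it was singled out after its values were seen. *Mcur1* did not overlap either but in the other direction, at 466, 426 and 452 in KO and 493, 482 and 484 in WT. Among all tested genes 9.07% did not overlap. Neither list had a gene at an unadjusted p under 0.05, and their most abundant mitochondrial genes, *Mcur1* and *Micu2*, averaged 448 and 419 in KO and 486 and 434 in WT hearts. Over the 8 lists together, 48 genes were tested. KO means were higher for 12 and lower for 36, where 49.4% of all tested genes were lower. Of the 48 genes, 2 had an unadjusted p under 0.05 (4.17%, near the 5.74% of all tested genes) and 0 passed an adjusted p of 0.05.

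Levels were compared between genes as normalized reads per kilobase of exon. In WT hearts *Pln* had 827 ± 108 and *Atp2a2* 733 ± 91.6 (SD, n = 3 each), with overlapping ranges. In KO hearts they had 739 ± 29.2 and 656 ± 28.9 (SD, n = 3 each). *S100a1* followed with 511 ± 60.6 in WT. All other members were several times lower, from *Slc8a1* at 70.9 ± 5.21 and *Camk2g* at 61.9 ± 3.58 to *Atp2b4* at 33.6 ± 0.850 and *Sln* at 13.2 ± 5.38 (SD, n = 3 each). *Itpr2* at 53.8, *Camk2d* at 51.0 and *Atp2b1* at 49.2 were neighbours whose WT ranges overlapped. The levels of *Pln*, *Atp2a2* and *S100a1* come from reads that followed depth with slopes of only 0.24, 0.25 and 0.38, so their size and spread cannot be set firmly against those of the other genes. All levels also depend on the length used. Divided by the longest transcript instead of all annotated exons, *Camk2d* had 208 and followed *S100a1*, and *Slc8a1* with 72.2 came after *Camk2g* and *Atp2b1*, while the 3 highest and the 2 lowest genes were the same.

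**Figure D5:**
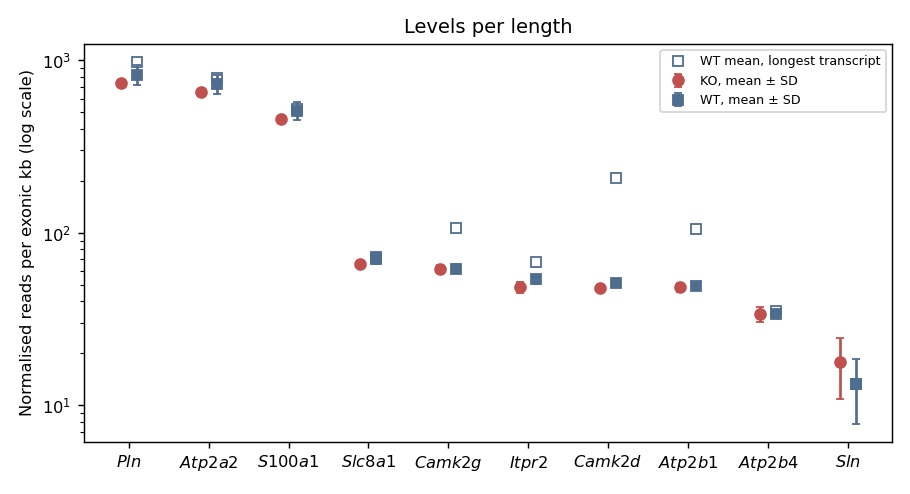
Normalized reads per exonic kilobase (vertical axis, log scale) of each gene, ordered by the WT level; filled symbols are the mean ± SD of 3 KO (red) or 3 WT (blue) hearts, and open squares the WT mean per kilobase of the longest transcript. *Pln*, *Atp2a2* and *S100a1* lie between 457 and 827 in both genotypes, and *Camk2d* moves most with the length, from 51.0 to 208.

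The genes most like *Atp2a2* over the 6 hearts, among 7063 tested genes with a mean of at least 100, were *Ndufb10*, *Malat1*, *Ccng1*, *Myh6* and *Pln*, with Pearson correlations of log2 values of 0.997 or 0.998. The points share genotype and library depth, and 236 genes reached a correlation of 0.9, so this is a description. *Malat1*, a nuclear non-coding RNA, was at 4677, 4912 and 5046 in KO and at 6248, 5450 and 4847 in WT hearts, in the same order as *Atp2a2*. For *Sln* the most similar were *Zfp809*, *Crhr2*, *Rars2*, *Cog2* and *Ccdc71l*, with correlations from 0.968 to 0.998, and 42 genes reached 0.9.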

How the data were processed

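Strand-specific total RNA libraries of 6 hearts were sequenced single-end with 75 bp. Per the labels and methods, the authors used Trimmomatic 0.39, STAR 2.6.1d (GRCm38), Picard 2.21.1, featureCounts 1.6.5 and DESeq2 1.18.1, and discarded duplicate, multi-mapping, ribosomal and mitochondrial reads. The deposited score is the read count of a gene divided by the size factor of its library, rounded to a whole number. A count test was not used on it, since the values are rounded after the division.

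Here, log2(value + 1) of the 13753 genes with a mean of at least 10 was fitted with limma 3.58.1 in R 4.3.3 (eBayes with trend, KO against WT, no covariate), two-sided, with Benjamini-Hochberg adjustment over all genes and a threshold of 0.05. On simulated data with 13743 to 13765 genes the share of 1.25-fold changes called was 26 to 48%, that of 1.5-fold changes 60 to 74%, with at most 7.84% false calls. The simulation had the same dispersion for all genes and reads proportional to depth. It also changed more genes than the 4 that passed in the real data, so these shares do not carry over to the members. Size factors, estimated from the pattern of skipped and repeated whole numbers, were 1.15, 1.06 and 1.01 in KO and 0.795, 0.955 and 1.10 in WT replicates 1 to 3. In 12 simulated libraries the error was at most 0.789%. The 3-read floor is a value of 2.61 to 3.77. Exonic lengths came from GENCODE M21, which held all 10 members, 5 of them with the same coordinates as the table. Spearman correlations within groups were 0.987 to 0.990.

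The members and lists were chosen with earlier results of these data known. Named were *Trdn-as*, *Trdn*, the members, the list genes with an unadjusted p under 0.05 or else the 2 most abundant, the cell type markers whose sum is given, and the 5 genes most correlated with *Atp2a2* and *Sln*. List genes named beyond this rule were chosen after their values were seen. One list gene that the rule names is not reported here. Lists of smooth muscle, endothelial, fibroblast, blood, leukocyte, fat and ventricular markers were also examined. Their median log2 fold changes were -0.02, 0.03, -0.06, -0.22, 0.06, -0.02 and -0.16, with 1 gene (*Myl3*, ventricular) at an unadjusted p under 0.05. Ratios were tested with exact permutation in scipy 1.17.1. Alternatives were limma-voom, 2 other scalings, 2 other filters, another pseudocount, a threshold of 0.01, the replicate number as a block, removal of the trend on abundance or read density, no mean-variance trend, depth as a covariate, another length, median ratios and leaving out each library.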

Additional observations from a re-analysis of the deposited data

How the results depend on the processing

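No member passed an adjusted p of 0.05 in any of the 17 refits or at a threshold of 0.01, with adjusted p from 0.185 (*Atp2a2* without WT replicate 3) to 1.00 (limma). The number at an unadjusted p under 0.05, 3 as reported, was 1 under total scaling, 0 with the trend on abundance removed, 0 without the mean-variance trend, 1 with the trend on read density removed (*Itpr2*) and 0 with library depth as a covariate; the last 2 alternatives were chosen after seeing the data. Leaving out 1 library gave 0 to 4, with 0 without KO replicate 1 or WT replicate 1 and 1 without KO replicate 2 or WT replicate 2. The direction reversed for genes near 0 or with few reads. *Sln* was at -0.09 and *Camk2g* at -0.07 with depth as a covariate, and *Atp2b4* at -0.01 with the density trend removed. Leaving out 1 library gave -0.07 to 0.01 for *Atp2b1*, -0.05 to 0.09 for *Atp2b4*, -0.03 to 0.05 for *Camk2g* and 0.13 to 0.76 for *Sln*. The cause was not tested. *Atp2a2*, *Pln*, *S100a1*, *Slc8a1*, *Camk2d* and *Itpr2* were lower in KO in every refit.

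Hearts were not paired by their replicate numbers, since the deviations of same-numbered hearts correlated at 0.05, -0.07 and -0.03 across genes. With the replicate block, 0 members passed an adjusted p of 0.05 and 2 had an unadjusted p under 0.05 (limma). *Sln* had 9 to 33 reads per library, a counting error of 33.8% in the lowest, whereas it was at most 5.78% for the other members.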
